A study of Rattus norvegicus with 64 samples.

Results

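Liver and kidney of vehicle-treated rats were compared to describe how the messenger RNA pools of these organs differ without acetaminophen. The comparison used every library of the series labelled with the agent Vehicle, 32 of 64, of which 16 are liver and 16 are kidney. The animals were Sprague Dawley rats given 6 ml/kg of vehicle containing 50% polyethylene glycol, and tissue was taken 5 h or 10 h later, so that the groups were liver at 5 h, liver at 10 h, kidney at 5 h and kidney at 10 h, with 8 libraries each. The libraries come from 16 vehicle rats, 8 per time, and the labels do not say which liver and which kidney came from the same rat. The labels used here give neither age nor sex. The other 32 libraries of the series come from animals given 2 g/kg acetaminophen and serve below only as a repeat of the tissue comparison in other rats.

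The liver is built mainly of hepatocytes, which make most plasma proteins, produce bile acids and carry out much of the body's drug metabolism. The kidney holds many specialised segments, among them the glomerulus, proximal tubule, loop of Henle, distal tubule and collecting duct, each with its own transporters and channels. Hepatocyte RNA is known for a small set of very abundant messages for secreted proteins, and tubule RNA for abundant messages of mitochondrial energy metabolism.

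The values are kallisto estimates for 28420 transcripts with Ensembl identifiers, as estimated read counts and as TPM, which divides the reads of a transcript by its effective length and sets every library to the same total. None of the identifiers occurs in the reference tables used here (0 of 28420), so no transcript is given a gene name, no marker gene of either organ could be looked up, and no sequence is shown. The grouping of libraries by tissue label was checked by similarity instead, which cannot tell which of the groups is liver. CPM are read counts scaled to equal library totals. The log2 CPM used for this were further adjusted by the trimmed-mean (TMM) factors described below, over the 17242 transcripts tested there. On these values liver libraries correlated with each other at r between 0.923 and 0.966 and kidney libraries at r between 0.938 and 0.968. A liver with a kidney library gave r between 0.617 and 0.680. In bulk tissue, fewer cells of a type and less RNA per cell cannot be told apart.

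Liver libraries held 21467448 to 29496773 estimated counts and kidney libraries 19607259 to 25661035. One library stood apart, liver 5 h replicate 6: it had 10350 transcripts at 1 TPM or more, against 11388 or more in the other 7 of its group, and the largest deviation from its group mean of all 32. Several results are given with and without it. A property of the deposited TPM also bears on what follows. For 978 transcripts of at most 334 bases, the effective length was not the length minus 199 bases, as it was for all longer transcripts, but a small value of its own, and few reads then give a high TPM. These 978 transcripts held 1.20% ± 0.174 of the counts in liver and 0.716% ± 0.0538 in kidney, but 26.6% ± 3.46 of the TPM in liver and 16.9% ± 1.01 in kidney (SD, n = 16 each). The main concentration measures and the class shares read across times are therefore given on TPM and also on counts, on TPM recomputed without these transcripts, or on both. Other shares, among them those of single classes and of the leading lists, are on TPM with these transcripts included.

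The liver pool was the more concentrated over its first 100 transcripts and by the number of transcripts needed to make up 50% of it. The 100 most abundant transcripts of a library held 61.2%, 67.1% and 69.7% of the TPM in liver (lowest, median and highest), against 47.4%, 50.5% and 54.4% in kidney. No liver library overlapped the kidney range. The means were 66.5% ± 2.55 in liver and 50.6% ± 2.21 in kidney (SD, n = 16 each; permutation test, two-sided, p = 2e-05, the smallest that 100000 resamples can give, and adjusted p = 2.33e-05 over 7 measures). On counts the same share was 52.6% ± 1.44 in liver and 34.9% ± 1.49 in kidney, and without the short transcripts it was 59.9% ± 1.73 in liver and 46.8% ± 1.91 in kidney (SD, n = 16 each).

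Between 24 and 43 transcripts, with a median of 28.5, made up 50% of the TPM of a liver library. In kidney it took between 56 and 131 transcripts, with a median of 94.5, so that the ranges did not meet (permutation test, adjusted p = 2.33e-05). The SD of this number was 5.62 in liver and 24.2 in kidney. On counts, 59 to 92 transcripts made up 50% of a liver library, against 389 to 539 in kidney. To reach 90% of the TPM, 1252 ± 154 transcripts were needed in liver and 3531 ± 189 in kidney (SD, n = 16 each).

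The effective number of transcripts, which is how many equally abundant transcripts would have the same Shannon entropy, was 283, 339 and 474 in liver (lowest, median, highest) and 598, 770 and 939 in kidney. All 16 liver libraries lay below all 16 kidney libraries. The means were 352 ± 57.5 in liver and 773 ± 108 in kidney on TPM (SD, n = 16 each; permutation test, adjusted p = 2.33e-05), and 787 ± 75.5 in liver and 2126 ± 167 in kidney on counts. The separation held within each time, with p = 0.000155 in the exact permutation test of 8 against 8 at 5 h and at 10 h, the smallest that test can give. Without liver 5 h replicate 6 the liver means were 347 ± 54.2 for the effective number and 66.8% ± 2.37 for the share of the first 100 (SD, n = 15).

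**Figure D1:**
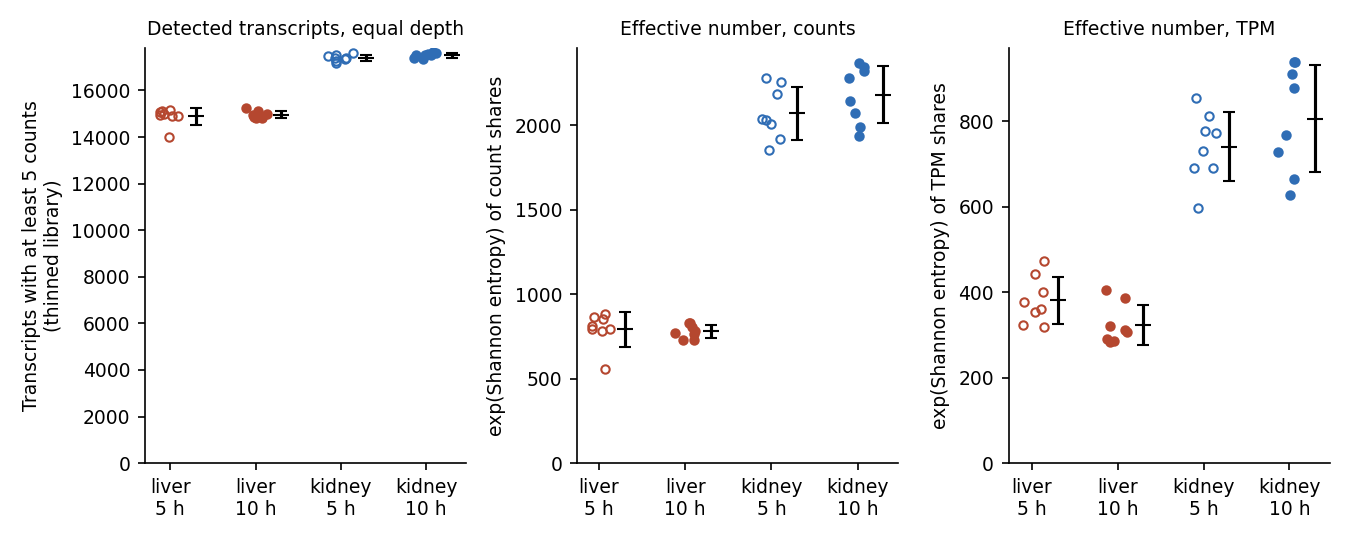
Per-library values in the 4 groups of 8 vehicle libraries: transcripts with at least 5 counts after thinning to 1 common depth (left), effective number of transcripts on counts (middle) and on TPM (right). Points are libraries and the bars beside them are mean ± SD. In each panel all liver libraries lie below all kidney libraries.

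The 10 most abundant transcripts did not show the same separation, and the outcome depended on the unit. On TPM they held 32.9% ± 2.99 in liver and 32.8% ± 2.67 in kidney (SD, n = 16 each; permutation test, adjusted p = 0.889), with ranges of 26.3% to 37.2% in liver and 28.7% to 36.5% in kidney. On counts the liver share was higher, 23.2% ± 1.55 against 20.02% ± 1.54 in kidney (permutation test, adjusted p = 2.42e-05). Without the short transcripts the liver share was the lower one, 26.4% ± 1.32 against 30.6% ± 2.35 in kidney (permutation test, adjusted p = 2.42e-05). The single most abundant transcript of a library held 10.5% ± 1.62 of the TPM in liver and 7.83% ± 1.002 in kidney (SD, n = 16 each; permutation test, adjusted p = 4.6e-05), with ranges that overlapped at 5 h and not at 10 h. Without the short transcripts this share was 6.68% ± 0.722 in liver and 6.14% ± 0.510 in kidney (permutation test, adjusted p = 0.0206). The 10 leading liver transcripts included 4 short ones and the 10 leading kidney transcripts 2.

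**Figure D2:**
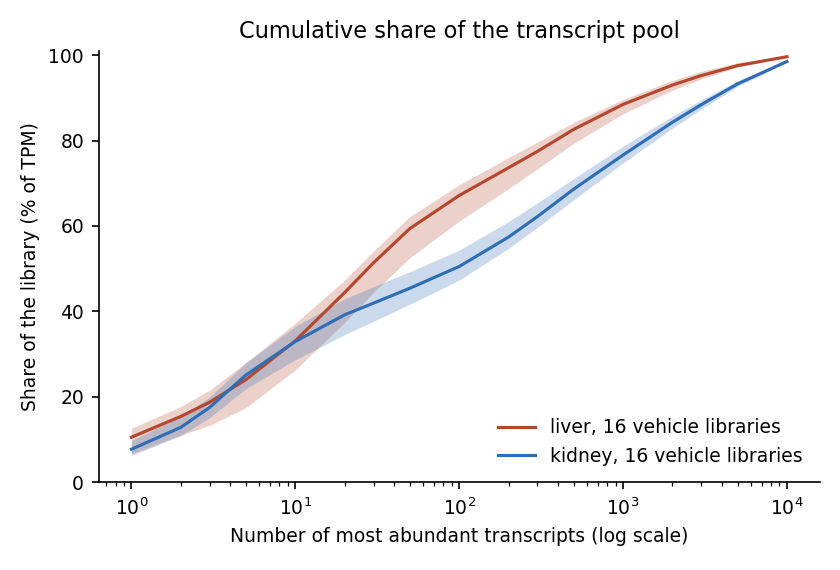
Share of a library's TPM (vertical axis, %) held by its most abundant transcripts (horizontal axis, number of transcripts, log scale). Lines are medians and bands the full range of 16 liver and 16 kidney vehicle libraries. The bands overlap at 10 transcripts, where the medians are 33.1% in liver and 32.97% in kidney, and are separate at 100.

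The lists of leading transcripts overlapped in part. Of the 10 most abundant transcripts by mean TPM, 3 were common to both lists (30% of each), of the first 100, 31 were (31% of each), and of the first 1000, 593 were (59.3% of each). The first 100 of the liver held 66.2% ± 2.75 of the TPM in liver libraries and 40.6% ± 2.54 in kidney libraries (SD, n = 16 each). The first 100 of the kidney held 18.2% ± 1.44 in liver libraries and 50.4% ± 2.24 in kidney libraries.

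The very top of the kidney pool was abundant in liver too, while many of the leading liver transcripts were at low levels in kidney. The 10 leading kidney transcripts had liver levels between 28.4% and 38.5% of their kidney levels. The median ratio of liver to kidney TPM over all 17242 tested transcripts, 0.374, lay within this range, so these levels were not particular to the leading kidney transcripts. Of the 10 leading liver transcripts, 7 had kidney levels under 0.1% of their liver levels; these 7 were liver-enriched, and the 3 common to both lists were higher in kidney TPM. Among the first 100 liver transcripts 52 had kidney levels under 1% of the liver level, and the lowest stood at 0.0206%. Among the first 100 kidney transcripts 12 had liver levels under 1%, and the lowest stood at 0.00777%. Over all 16 libraries of each organ, the order of the leading transcripts varied more in liver: 18 transcripts were among the first 10 of at least 1 liver library and 3 among the first 10 of every one, against 12 and 7 in kidney. The liver counts include liver 5 h replicate 6 and were not recomputed without it.

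More transcripts were detected in kidney than in liver. At 1 TPM or more, a liver library held 10350, 11427.5 and 11802 transcripts (lowest, median, highest), against 14383, 14716 and 14928 in a kidney library. The ranges did not overlap, with means of 11324 ± 366 in liver and 14673 ± 173 in kidney (SD, n = 16 each; permutation test, adjusted p = 2.33e-05). Detection was also counted at equal depth. After every library was thinned to 19000000 counts, 14927 ± 272 transcripts had at least 5 counts in liver and 17457 ± 134 in kidney (SD, n = 16 each; permutation test, adjusted p = 2.42e-05). Both counts depend on the rest of the pool, since reads taken by abundant transcripts are not available to the others. Without liver 5 h replicate 6 the liver mean at 1 TPM was 11389 ± 267 (SD, n = 15).

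Weighted by TPM, the mean transcript length was 1042 ± 54.2 bases in liver and 1180 ± 28.4 bases in kidney (SD, n = 16 each; permutation test, adjusted p = 2.33e-05), with overlapping ranges. Without the 978 short transcripts it was 1344 ± 31.3 bases in liver and 1377 ± 27.7 bases in kidney, a smaller difference (permutation test, adjusted p = 0.00458) that did not pass the test at 5 h alone (exact permutation test, adjusted p = 0.31).

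Most measured transcripts differed between the organs. With edgeR's quasi-likelihood test on the rounded counts, time as a covariate and trimmed-mean (TMM) scaling, 13795 of 17242 transcripts tested had a Benjamini-Hochberg adjusted p under 0.05, or 80% of those tested. Of these, 6473 were higher in liver (37.5% of those tested) and 7322 were higher in kidney (42.5%). Many of the differences were small: 3605 of the calls higher in liver and 2820 of those higher in kidney were under 2-fold. A difference of at least 2-fold was called for 6297 transcripts, or 36.5%, with 2386 higher in liver (13.8%) and 3911 higher in kidney (22.7%).

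The largest differences were more common on the kidney side, except for the most extreme. Fitted differences of 16-fold or more were found for 645 transcripts higher in liver and 1337 higher in kidney, and differences of 1000-fold or more for 182 higher in liver and 109 higher in kidney. These are counts of fitted values, which depend on the prior count where one organ is near 0. The median length of transcripts at least 2-fold higher in liver was 1796 bases, against 2177 bases for those at least 2-fold higher in kidney and 1971 bases for all tested.

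On the TMM scale many transcripts were at similar levels in both organs. For 7711 of the 17242, or 44.7%, the 95% interval of the difference lay within 2-fold in either direction. Of the 3447 transcripts without a call, 2653 had such an interval, and the data leave a larger difference possible for the others. These counts hold for TMM scaling: the fitted difference was within 2-fold for 56.6% of the transcripts on that scale, and the ratio of means was within 2-fold for 34.2% on CPM and 26.7% on TPM.

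Which organ appears higher depended strongly on the scale. The median log2 difference (liver over kidney) over the tested transcripts was -0.07 after TMM scaling, -1.21 on plain CPM and -1.42 on the deposited TPM, where 12.5% of the transcripts were higher in liver. With limma on log2(TPM + 1), 16098 transcripts were called and 10.4% of the calls were higher in liver, against 46.9% of the calls in the edgeR fit. TMM scaling sets the middle of the transcripts to no difference, while TPM sets the totals equal, and the files hold no measure of RNA per cell to choose between them. The TMM factors were 0.673 ± 0.0561 in liver and 1.49 ± 0.0438 in kidney (SD, n = 16 each), and 0.489 in liver 5 h replicate 6.

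**Figure D3:**
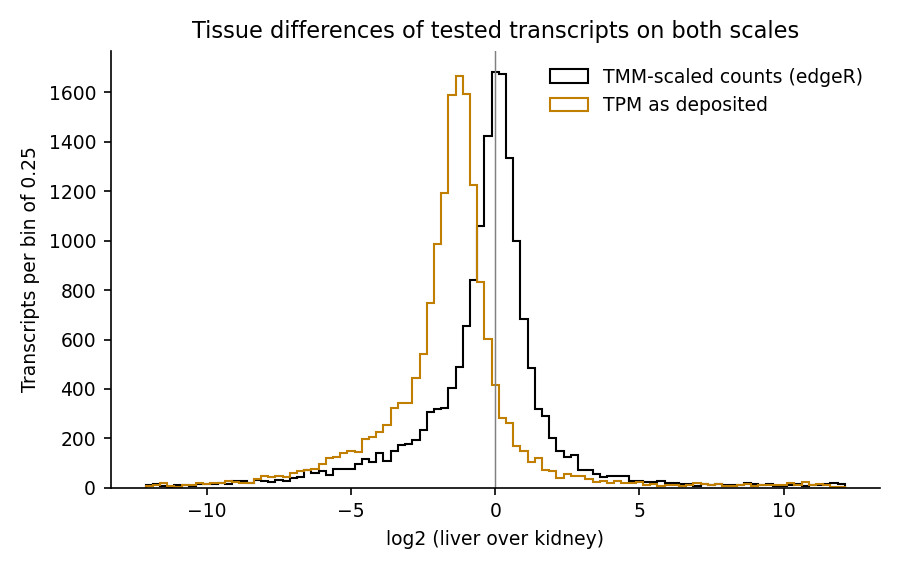
Distribution of log2 liver over kidney for the 17242 tested transcripts (horizontal axis, vertical axis transcripts per bin), after TMM scaling (black) and on the ratio of mean TPM with 0.01 added (orange). The TPM distribution lies to the left, with a median of -1.42 against -0.07.

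Transcripts were then sorted into classes by their TPM. A transcript was called exclusive to an organ at 1 TPM or more in each of its 16 libraries and under 0.1 TPM in each of the 16 of the other organ. It was called enriched, when not exclusive, when its mean reached 1 TPM and exceeded that of the other organ 16 times or more (0.01 added to both), and raised at 4 to 16 times. Shared transcripts had at least 1 TPM in both organs and differed by at most 2 times, scarce ones were under 1 TPM in both, and the rest were called intermediate. The classes use the tissue difference itself, so their sizes and levels are a description.

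By these rules 40 transcripts were exclusive to liver and 304 to kidney, 393 were enriched in liver and 1460 in kidney, and 283 were raised in liver and 2898 in kidney. A further 3974 were shared, 5950 intermediate and 13118 scarce. The 16-fold limit cut through a continuous range, with 23 liver-enriched and 203 kidney-enriched transcripts between 16 and 20 times, and 37 in liver and 337 in kidney between 12 and 16 times.

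The class sizes followed the scale. On TPM rescaled by the TMM factors, 65 transcripts were exclusive to liver and 155 to kidney, 554 were enriched in liver and 796 in kidney, 717 were raised in liver and 1053 in kidney, and 8103 were shared. The kidney thus had the longer lists of exclusive and enriched transcripts on both scales, by less after rescaling. Shared on TPM did not mean equal after TMM scaling. Of 4475 transcripts shared on TPM at 5 h, 4384 were tested at 10 h. There edgeR called 3777 of them higher in liver and 15 higher in kidney, against 36.5% and 41% of all 16120 tested. The median log2 difference (liver over kidney) of these 4384 was 0.71. Exclusiveness was also a matter of detection: 7 of the liver and 51 of the kidney transcripts of 1 TPM or more had a count of 0 in every library of the other organ.

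**Figure D4:**
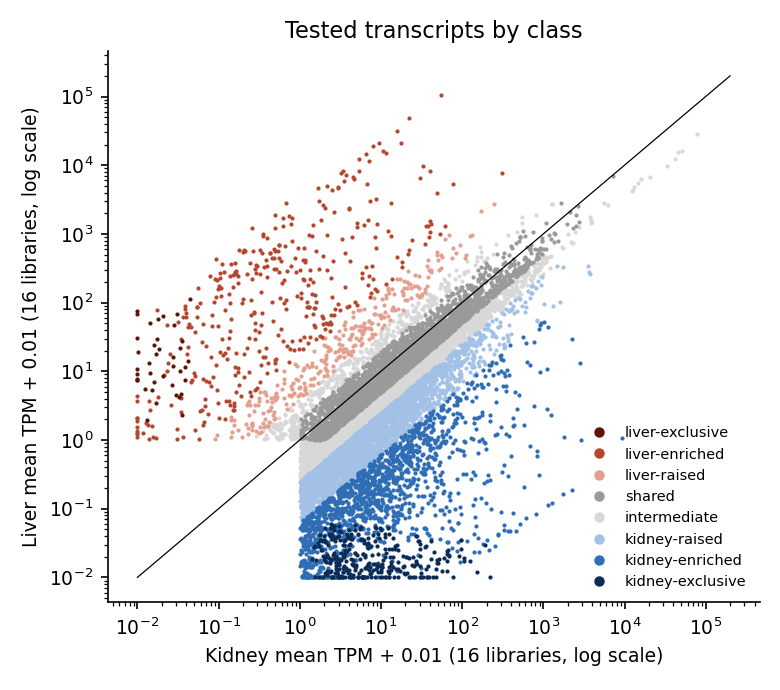
Mean TPM of tested transcripts in liver (vertical axis) against kidney (horizontal axis), 0.01 added, log scales, coloured by class; scarce transcripts are left out and the line marks equal TPM. Most transcripts lie below the line, and the most abundant liver-enriched transcripts lie far above it.

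The short liver lists held a far larger part of the liver pool than the long kidney lists held of the kidney pool. Liver-enriched transcripts made up 48.01%, 56.5% and 58.1% of the TPM of liver libraries (lowest, median, highest), and 0.112% to 0.280% of kidney libraries. Kidney-enriched transcripts made up 0.105% to 0.186% of liver libraries, and 7.96%, 8.85% and 10.5% of kidney libraries. Exclusive transcripts were few in molecules: 0.0927% ± 0.0176 of the liver TPM for those of liver and 0.462% ± 0.0286 of the kidney TPM for those of kidney (SD, n = 16 each).

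Raised transcripts of the liver held 2.74% ± 0.314 of the TPM in liver and 0.346% ± 0.0343 in kidney, and those of the kidney 1.41% ± 0.135 in liver and 9.25% ± 0.460 in kidney (SD, n = 16 each). Shared transcripts held 16.8% ± 1.54 of the TPM in liver and 21.7% ± 1.52 in kidney, and intermediate ones 23.6% ± 1.55 in liver and 58.9% ± 1.83 in kidney (SD, n = 16 each). All 10 leading kidney transcripts were intermediate. When the classes were set on the TMM scale, shared transcripts held 29.7% ± 2.08 of the liver TPM and 74.8% ± 1.09 of the kidney TPM.

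**Figure D5:**
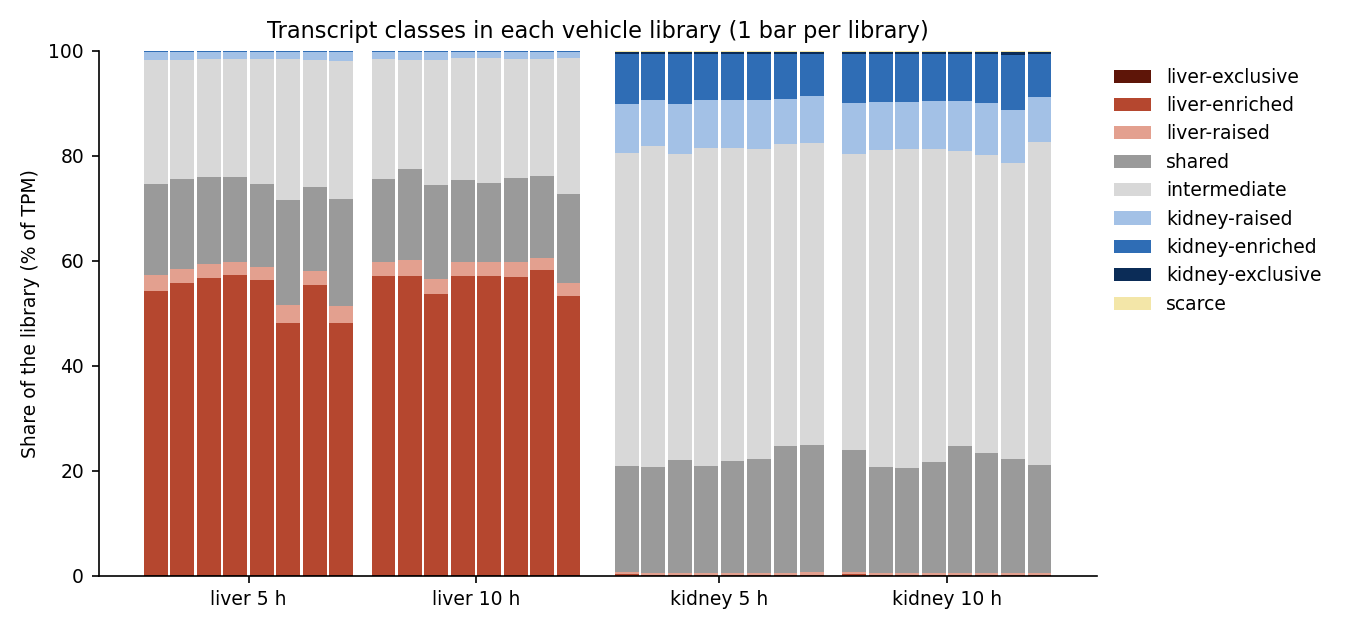
Share of each vehicle library's TPM (vertical axis, %) in each transcript class, 1 bar per library, grouped by tissue and time. Liver-enriched transcripts fill 48.01% to 58.1% of the liver bars, and kidney-enriched transcripts 7.96% to 10.5% of the kidney bars.

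To keep the choice of transcripts apart from the libraries measured, the classes were set at one time and their shares read at the other. Exclusive and enriched transcripts of the own organ then held 55.2% ± 2.98 of the TPM in liver libraries and 9.65% ± 0.585 in kidney libraries (SD, n = 16 each; permutation test, two-sided, p = 2e-05). The liver libraries lay between 48.2% and 58.2% and the kidney libraries between 8.602% and 11.1%. The same shares were 48.8% ± 1.22 in liver and 14.9% ± 0.640 in kidney on counts, and 49.3% ± 2.12 in liver and 10.9% ± 0.640 in kidney without the short transcripts (SD, n = 16 each). Transcripts of the other organ, read in the same way, held 0.149% ± 0.0306 in liver libraries and 0.177% ± 0.0495 in kidney libraries (SD, n = 16 each; permutation test, two-sided, p = 0.066). By time, this share was 0.128% ± 0.0139 in liver and 0.170% ± 0.0367 in kidney at 10 h (n = 8 each; exact permutation test, p = 0.00202), and 0.170% ± 0.0282 in liver and 0.185% ± 0.0614 in kidney at 5 h (n = 8 each; exact permutation test, p = 0.558). Whether the times differ in this was not tested.

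In liver the share of organ-enriched transcripts was higher at each step of abundance, and in kidney the order depended on the scale. Of the transcripts with a mean of 1 to 10 TPM in liver, 97 of 7189 (1.35%) were liver-enriched or liver-exclusive, as were 3.87% of those from 10 to 100, 19.6% of those from 100 to 1000 and 62 of 103 (60.2%) of those above 1000 TPM. In kidney the shares of kidney-enriched or kidney-exclusive transcripts were 13.6%, 9.64%, 13.3% and, above 1000 TPM, 14 of 76 (18.4%). With classes on the TMM scale the shares over the same 4 steps were 2.06%, 5.89%, 25.5% and 62.1% in liver, and 6.09%, 6.20%, 9.44% and 15.8% in kidney, so that they were higher at each step in both organs. These shares are descriptions over transcripts, which are not independent replicates.

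Leaving the liver-exclusive and liver-enriched transcripts out of both pools, and rescaling what was left to the same total, moved the median difference towards 0 and turned the order of the concentration measures round. The median log2 difference of the remaining tested transcripts was -0.30, against -1.42 with all. The effective number was then 921 ± 141 in liver and 768 ± 107 in kidney, against 352 ± 57.5 in liver and 773 ± 108 in kidney for the whole pools (SD, n = 16 each). The share of the first 100 transcripts was 47.5% ± 2.74 in liver and 50.7% ± 2.21 in kidney. With the kidney-exclusive and kidney-enriched transcripts left out as well, the median difference was -0.31, the effective number 907 ± 138 in liver and 614 ± 91.0 in kidney, and the share of the first 100 47.6% ± 2.73 in liver and 53.8% ± 2.22 in kidney (SD, n = 16 each). Since the transcripts were left out for their levels in these libraries, these values are a description.

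Most members of these classes met the same rule in vehicle libraries of the other time. Of 380 transcripts liver-enriched at 5 h, 332 were liver-enriched at 10 h (87.4%), and edgeR called 354 as higher in liver at 10 h, where 36.5% of all 16120 tested were, with 355 of them passing the filter on low counts. Of 1315 transcripts kidney-enriched at 5 h, 1065 were kidney-enriched at 10 h (81.0%), and 1189 were called higher in kidney, where 41% of those tested were, with 1192 of them passing the filter. Enriched transcripts pass this filter through the organ where they are high. A call on that side was thus close to given beforehand, and these calls are a description. Exclusive transcripts chosen at 5 h were exclusive again at 10 h in 40 of 57 cases in liver and 304 of 371 in kidney. In the other direction, from 10 h to 5 h, the same class was met by 332 of 378 liver-enriched (87.8%), 1065 of 1443 kidney-enriched (73.8%), 40 of 55 liver-exclusive (72.7%) and 304 of 446 kidney-exclusive transcripts (68.2%). No transcript of these lists moved to the opposite organ's classes.

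The acetaminophen animals gave a repeat of the tissue comparison in 32 libraries from other rats. A difference of at least 2-fold was called for 6089 transcripts there, 35.2% of those tested, with 2095 higher in liver (12.1%) and 3994 higher in kidney (23.1%). Of the 6184 transcripts with a 2-fold call in vehicle animals that were tested there, 5477 had a 2-fold call in the same direction, and 2 were called in the opposite one at any size, a rule that called 76.7% of the 17311 tested there. Of the classes set in vehicle animals, 346 of 393 liver-enriched and 1254 of 1460 kidney-enriched transcripts met the same rule in acetaminophen animals. The rule for exclusiveness was met again by 7 of 40 liver-exclusive and 152 of 304 kidney-exclusive transcripts. How many of all transcripts met these rules in acetaminophen animals was not counted, so the class numbers have no such share to be read against.

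Values of individual transcripts are given for 4, the most abundant enriched and the most abundant exclusive one of each organ. They were picked for their vehicle levels, so tests are given only from the acetaminophen animals. ENSRNOT00000071798, the most abundant liver transcript by mean TPM, had 43795, 105834 and 126771 TPM in liver (lowest, median, highest) and 2.69, 14.3 and 327 TPM in kidney. The lowest liver value belongs to 5 h replicate 6, and the ranges lie far apart. It is 174 bases long with an effective length of 17.2 bases, and in counts it had a mean of 2127 ± 510 CPM in liver and 0.930 ± 1.54 CPM in kidney (SD, n = 16 each). Across the 16 liver libraries, 2 different transcripts came first on TPM. As the leading transcript of a liver library held 8.52% to 12.8% of the counts, ENSRNOT00000071798 did not lead on counts. In acetaminophen animals its log2 difference was 11.43 ± 0.93 (SE; edgeR adjusted p = 5.27e-13), and the kidney libraries there reached 1917 TPM.

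ENSRNOT00000072465, the most abundant liver-exclusive transcript, is 4095 bases long and ranked at 741 in liver. It had 73.3, 115 and 147 TPM in liver and at most 0.0980 TPM in kidney, where 2 of the 16 libraries had a count of 0. The lowest liver library was thus far above the highest kidney library. In acetaminophen animals the log2 difference was 11.02 ± 0.63 (SE; edgeR adjusted p = 4.86e-17), and the kidney libraries there reached 1.34 TPM.

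ENSRNOT00000007806, the most abundant kidney-enriched transcript, is 705 bases long and ranked at 12 in kidney. It had 0, 0.232 and 7.41 TPM in liver (lowest, median, highest) and 2739, 9351 and 12468 TPM in kidney. In 4 liver libraries the count was 0, and the highest liver value belongs to 5 h replicate 6. In acetaminophen animals the log2 difference was -9.10 ± 1.07 (SE; edgeR adjusted p = 2.86e-09), with 1 liver library at 93.6 TPM.

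ENSRNOT00000015112, the most abundant kidney-exclusive transcript, is 2688 bases long and ranked at 552 in kidney. It had a count of 0 in all 16 liver libraries, and 55.98, 199 and 386 TPM in kidney (lowest, median, highest). Its kidney level, over the pooled counts of the 16 libraries, was 554 CPM. That is 74039.6 times a floor of 3 counts over the 16 liver libraries, or 0.00748 CPM. The floor covers counting error only, and the transcript was picked for its low levels in these same liver libraries. This ratio is therefore a description and not a lower bound. In acetaminophen animals the log2 difference was -8.83 ± 0.82 (SE; edgeR adjusted p = 1.19e-11), and the highest liver library there had 3.86 TPM.

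Most tissue differences were found at both collection times. Fitted alone, the 5 h libraries gave 5178 differences of at least 2-fold (32.4% of 15959 tested) and the 10 h libraries 5670 (35.2% of 16120). Of the 15764 transcripts tested at both times, 5090 had a 2-fold call at 5 h and 5495 at 10 h. A 2-fold call at both times was found for 4775, which is 93.8% of these 5090 and 86.9% of these 5495, and none of the 4775 changed direction. The test of a change of the tissue difference between 10 h and 5 h called 156 of 17242 transcripts, or 0.905%, with 70 more positive (0.406%) and 86 more negative (0.499%) at 10 h, by a median of 0.87 on the log2 scale. Among the 156, the sign of the tissue difference was opposite at the 2 times for 31. By class the calls were 0 of 40 liver-exclusive, 2 of 381 liver-enriched, 5 of 282 liver-raised, 3 of 302 kidney-exclusive, 6 of 1411 kidney-enriched, 32 of 2833 kidney-raised, 54 of 3921 shared, 42 of 5840 intermediate and 12 of 2232 scarce transcripts tested, or between 0% and 1.77% of a class. The count was 295 without liver 5 h replicate 6, 283 without liver 10 h replicate 3, 264 without liver 5 h replicate 4, 501 by DESeq2 and 429 by limma voom with library weights.

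For the per-library measures, no change of the tissue difference between the times passed the test. The share of the first 100 transcripts was higher in liver by 17.7 percentage points at 10 h and by 14.2 at 5 h (permutation of the times within tissue, p = 0.0376, adjusted p = 0.0741 over 7 measures). The effective number was lower in liver by a difference of -483 at 10 h and -360 at 5 h (permutation, p = 0.0423, adjusted p = 0.0741).

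In the levels of single transcripts, liver libraries differed more among themselves than kidney libraries did. Over 8038 tested transcripts that were shared on the TMM scale, the root mean square deviation of a library from its group mean, in log2 CPM, was 0.377, 0.437 and 0.854 in liver (lowest, median, highest) and 0.269, 0.305 and 0.467 in kidney. The highest liver value is that of 5 h replicate 6 and the highest kidney value that of 5 h replicate 7, so the ranges overlapped. The means were 0.462 ± 0.110 in liver and 0.320 ± 0.0479 in kidney (SD, n = 16 each; permutation test, two-sided, adjusted p = 2.33e-05). With the value of liver 5 h replicate 6 left out, the liver mean was 0.436 ± 0.0368 (SD, n = 15; permutation test, adjusted p = 2.33e-05). The group mean from which the other libraries deviate still included that library. Per transcript, the median SD of log2 CPM between libraries of a group was 0.26 in liver and 0.16 in kidney, and 88.7% of these transcripts had the larger SD in liver. At the same TMM-scaled level a transcript had fewer reads in liver, with TMM factors of 0.673 ± 0.0561 in liver and 1.49 ± 0.0438 in kidney. Fewer reads also widen log2 CPM, and how much of the difference in spread this makes up was not tested.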

How the data were processed

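Per the labels' protocols, poly-A RNA was made into stranded libraries and read as 75-base single ends. The submitters' processing notes name kallisto 0.42.4 and Rnor_6.0. For every library the authors deposited estimated counts, which are not normalized, and TPM of the same transcripts. Of the deposited estimated counts, 26.7% lie over 1e-06 from a whole number. The tissue labels read liver and kidney, although the RNA protocol there mentions cultured cells. The deposited TPM are scaled by the effective length, which the files also give in bases. Reads shared by related transcripts are split by kallisto's model, so levels of near-identical transcripts are uncertain.

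Estimated counts were rounded. The test was the two-sided quasi-likelihood test of edgeR 4.0.16 (R 4.3.3), after its filter on low counts by group and with TMM factors, glmTreat being used for 2-fold differences, with tissue and time as terms and Benjamini-Hochberg adjustment over all 17242 transcripts tested. Standard errors are the log2 difference divided by the square root of F. Intervals use 29 residual degrees of freedom. Per-library measures were compared by permutation of library labels (scipy 1.17.1), adjusted over 7 measures; further versions of these measures were adjusted together. Log2 CPM use TMM factors and a prior count of 2. TPM on the TMM scale are TPM multiplied by 1 factor per library, from the TMM factors. DESeq2 1.42.0 and limma 3.58.1 served as alternatives. Liver and kidney of the same rats entered as independent libraries, which the tests do not account for. Each group of 8 is 8 rats, and libraries of the same group differed beyond sampling noise (smallest chi-square per degree of freedom 13.3).

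On simulated counts for the liver against kidney comparison with 17242 transcripts and 200 changed ones, 77.6% of changes of 1.5-fold were found by edgeR, as were 83.6% of those of 2-fold and 89.4% of those of 4-fold, and 3 unchanged transcripts were called. The simulated pools of both organs were otherwise alike, whereas 80% of the transcripts tested were called in the real comparison. The simulation therefore cannot measure the rate of false calls where most transcripts differ.

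The naming rule took 2 transcripts per organ, the most abundant called enriched and the most abundant called exclusive one; the planned marker lists could not be used without gene symbols. Classes, measures and lists were chosen with earlier results of these data known. The values without short transcripts, without organ-enriched transcripts, without liver 5 h replicate 6 and in acetaminophen animals, and the class counts without 1 library each, were added after seeing the data.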

Additional observations from a re-analysis of the deposited data

Results flagged for a closer look

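A value was set apart where the gap between a library and its nearest neighbour exceeded Dixon's 95% limit in its group of 8. Of 52 sets of values examined 9 had such a library, and chance gives about 1 in 20. Liver 5 h replicate 6 accounts for 4 of them: it had the lowest number of transcripts at 1 TPM or more (10350, next 11388), the highest deviation in log2 CPM (0.854, next 0.522), the lowest level of ENSRNOT00000071798 (43795 TPM, next 84603) and the highest liver level of ENSRNOT00000007806 at 5 h (7.41 TPM, next 3.28).

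The other 5 were spread over 5 libraries. Kidney 5 h replicate 7 had the highest deviation in log2 CPM of its group (0.467, next 0.361). Liver 5 h replicate 8 had the highest share of kidney-enriched and kidney-exclusive transcripts (0.232% of TPM, next 0.182%). Kidney 5 h replicate 1 had 327 TPM of ENSRNOT00000071798, with the next library of its group at 32.3. Outside that group, kidney 10 h replicates 1 and 2 had 172 and 168 TPM. Kidney 10 h replicate 2 had 0.0939 TPM of ENSRNOT00000072465 (next in its group 0.0393), and liver 10 h replicate 4 had 1.60 TPM of ENSRNOT00000007806 (next in its group 0.672).

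The liver to kidney difference differed between 10 h and 5 h for 156 transcripts by edgeR's test of the tissue by time term.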

How the results depend on the processing

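Over all settings tried, most of which left out 1 library, 536 recomputed values kept their direction and call or, for counts, stayed within 1.5 times in total. Another 23 counts moved further, and of the measures 3 changed direction and 1 gained a call. The split of a count by organ was not part of this rule. The 536 thus include limma on log2(TPM + 1), with 1682 calls higher in liver and 14416 higher in kidney, against 6473 and 7322 in the edgeR fit. The number of transcripts that differed at all between the organs ranged from 13736 to 14056, and the number that differed at least 2-fold from 6313 to 6421, without 1 library each. The number whose tissue difference changed with time, 156, ranged from 104 to 295 without 1 library each and was 242 without the libraries numbered 66 and 67 (liver 5 h replicates 7 and 8), which follow the run of 1 to 64, 501 by DESeq2 and 429 by limma voom. With detection at 5 TPM, 16 transcripts were liver-exclusive, 115 kidney-exclusive, 953 kidney-enriched and 1758 kidney-raised. With exclusiveness by counts of 0, 7 were liver-exclusive and 51 kidney-exclusive. At an enrichment ratio of 8, 172 were liver-raised and 2393 kidney-enriched, and at 32, 922 were kidney-enriched. At a shared ratio of 1.5, 1906 were shared. On the TMM scale 65 were liver-exclusive, 717 liver-raised, 155 kidney-exclusive, 796 kidney-enriched, 1053 kidney-raised, 8103 shared and 2955 intermediate. The liver minus kidney difference in the share of the first 10 transcripts, 0.146 percentage points, was -1.87 at 5 h alone, -1.67 without the most abundant transcript of each library, -4.21 without the short transcripts, 3.22 on counts and 0.584 without liver 5 h replicate 6. The cause was not tested, apart from the transcripts left out by construction. No paired analysis was possible because liver and kidney of 1 rat are not matched in the labels and replicate numbers are in accession order. Precision is limited by 16 rats and, for scarce transcripts, by the counts.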
